A study of Mus musculus with 12 samples.

Results

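The comparison described here set the EGFP low cells of the mouse liver against the EGFP-negative cells sorted in the same study. The levels compared are those of 6 of the 12 RNA-seq libraries of the study, 3 EGFP low and 3 EGFP-negative. The main fit took its estimate of the spread from all 12 libraries. The genes tested were the 16128 of 54227 annotated genes whose mean normalised count over the 12 libraries was at least 10. The animals were C57Bl/6 mice with a Sox9EGFP transgene, which the EGFP-negative cells carried as well. They had been fasted for 16 h, and their livers were dissociated and sorted by fluorescence into negative, sublow (named sub below), low and high populations of 12000 cells each. The labels give no age, sex or promoter for the transgene, and they do not say whether the 3 libraries of a population came from separate animals. Libraries with the same number share a token in their descriptions across all 4 populations, and whether it names an animal is not given in the sources used here. The p-values below therefore measure only the spread between libraries of the same population, over all 12 libraries unless a fit of fewer is named.

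Cholangiocytes are the epithelial cells that line the bile ducts, and SOX9 is a transcription factor that they keep making in the adult liver, while most hepatocytes do not. The remaining cells of the organ include the sinusoidal endothelium, a perforated vessel lining that clears waste from blood through scavenger receptors, and the stellate cells, which store retinoids and produce matrix. Epithelial and mesenchymal cells of an organ typically divide the work of signalling, with the ligand made on one side and its receptor on the other.

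The low libraries held 13455495 to 14716505 reads on annotated genes and the negative libraries 8775387 to 15535588, as recovered from the deposited values. A single read was worth 0.742 to 0.850 normalised counts in the low libraries and 0.691 to 1.22 in the negative ones. Of the tested genes, 28.3% to 46.4% were at 0 in a low library and 36.1% to 47.6% in a negative library, so a value of 0 in 1 library was common even for genes that were abundant in another library. EGFP low library 1 stood apart with the 28.3%, against 46.4% and 45.2% in the other low libraries. Log2 values correlated across the tested genes at a mean of 0.595 between low libraries, 0.548 between negative libraries and 0.422 between the populations. Mitochondrial ribosomal RNA made up 5.32% to 6.00% of the low libraries and 2.10% to 2.78% of the negative libraries. The 100 most abundant genes took 36.5% to 37.1% of a low library and 27.2% to 27.8% of a negative one. The part of these differences in the results below was not tested.

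The main test was limma on log2 of the normalised count plus 1, fitted over all 12 libraries, with Benjamini-Hochberg adjustment over all tested genes. At an adjusted p under 0.05, 757 genes differed between the low and negative populations, which is 4.69% of those tested. These genes are named as called below. Of them, 411 were higher in EGFP low cells (2.55% of the tested genes) and 346 were lower (2.15%), and the median log2 fold change of all tested genes was 0. Every count of called list members below is to be read beside these shares. All 3 low libraries lay above all 3 negative libraries for 407 of the 411, and below them for 345 of the 346. Of all 16128 tested genes, called or not, 1352 lay fully above in this way and 1374 fully below. The differences were often between presence and absence: 143 of the genes called higher were at 0 in every negative library, and 127 of those called lower were at 0 in every low library. Of the 346 genes called lower, 201 were above 0 in EGFP low library 1, 132 in library 2 and 148 in library 3, and their counts summed to 173802, 168186 and 185041. What was read of F8, Col3a1, Pde2a and Dcn in low cells lay mainly in library 1. For a gene with at most 3 reads in each library of a population, fold changes are given as lower bounds against 3 reads, and otherwise as ratios of population means. Log2 fold changes are on the log2(value + 1) scale, low minus negative, ± SE. With each of the 12 libraries left out in turn, the number called ran from 465 (without EGFP low library 3) to 737, and it was 485 without EGFP low library 2. A fit of the 6 low and negative libraries alone called 203 genes (99 higher, 104 lower).

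**Figure D1:**
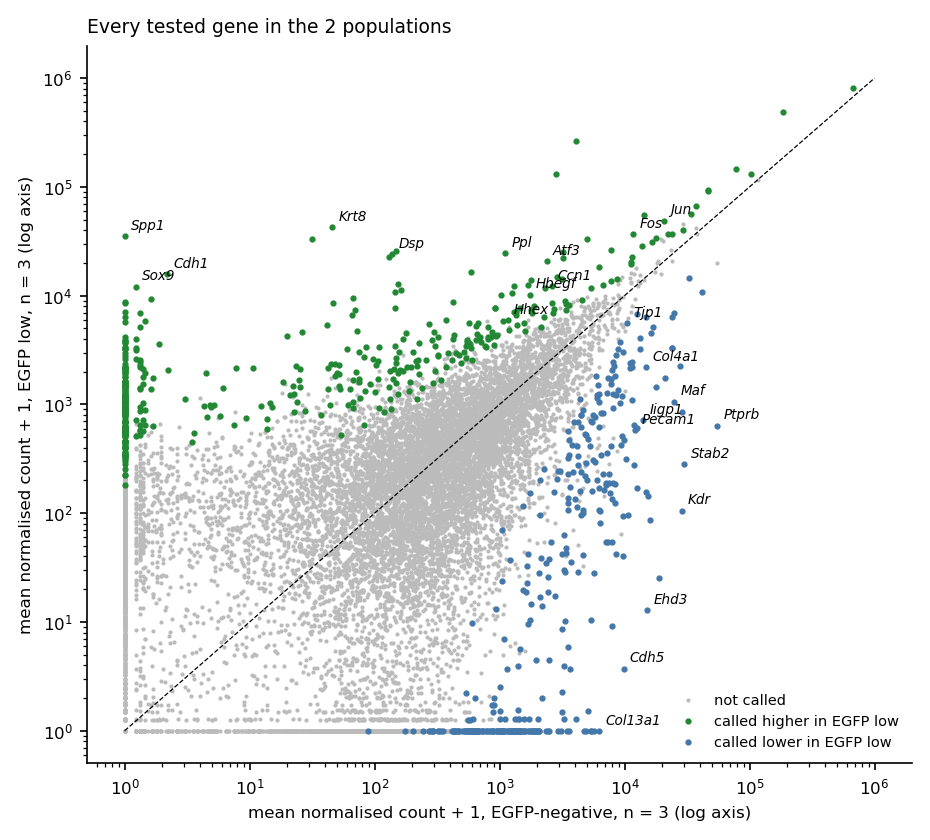
Mean normalised count plus 1 of each tested gene in EGFP-negative (x axis) and EGFP low cells (y axis), n = 3 libraries each, both axes logarithmic. Green points are the 411 genes called higher, blue points the 346 called lower and grey points the rest; the dashed line marks equal levels. Many called genes sit on an axis, at a mean of 0 in 1 of the populations.

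The EGFP low cells carried the transcripts of bile duct epithelium, and the negative cells carried little of them. Of 13 tested genes in a list of biliary markers, 10 were higher in low cells and none was lower, against 2.55% and 2.15% of all tested genes. Their median log2 fold change was 11.98, and 10.47 when fold changes against at most 3 reads enter as their lower bounds. The counts of the whole list summed to 90626 to 110114 per low library and to 596 to 1031 per negative library. Sox9, which the name of the transgene ties to the gates, is among the 10 and enters the median and the sums. In bulk samples such as these, fewer cells of a type and less RNA per cell cannot be told apart.

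Sox9, the gene that the EGFP transgene of the sort is named for, was read at 8838, 10313 and 17140.4 normalised counts in the 3 low libraries and at 0.691, 0 and 0 in the negative libraries. The ratio was at least 3297-fold, and it is given as a description because of that link to the gates. Spp1 encodes osteopontin, a phosphoprotein that cholangiocytes secrete. It stood at 29882, 32021 and 43641 in low cells and at 0 in all 3 negative libraries, at least 9589-fold higher (adjusted p = 5.57e-13) and with no overlap. Its span overlaps that of Gm42793 on the same strand, so reads shared by the pair could have gone to either.

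Epcam encodes the epithelial adhesion molecule by which duct cells are often isolated. It had 5498, 6061 and 5585 normalised counts in low cells and 0 in each negative library, at least 1558-fold higher (adjusted p = 6.5e-07). Krt19, a keratin of simple ductal epithelium, stood at 6631, 4936 and 5819.8 against 1.38, 0 and 0, at least 1579.6-fold higher (adjusted p = 1.06e-05). In both genes the groups were far apart, with the low libraries within a narrow band.

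Krt7, the other keratin used to mark ducts, was not called. It had 943, 1909 and 851 in low cells and 410.4, 127 and 20.3 in negative cells, a 6.64-fold ratio with an adjusted p of 0.145. The groups did not overlap, but the negative libraries themselves spread widely. Prom1 and Muc1, surface glycoproteins of the duct lumen, also missed the threshold (adjusted p = 0.186 and 0.31). Tspan8, a tetraspanin, was at 3140.1, 3354 and 4776 in low cells and at 0 in the negative libraries (at least 1024-fold higher, adjusted p = 1.35e-05). Cd24a, a surface sialoglycoprotein of progenitor and duct cells, was 41.3-fold higher (adjusted p = 0.00666), a call that was lost when any 1 of the low libraries was left out, with adjusted p reaching 0.0753. Over all 12 omissions, 8 to 11 biliary genes were called.

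**Figure D2:**
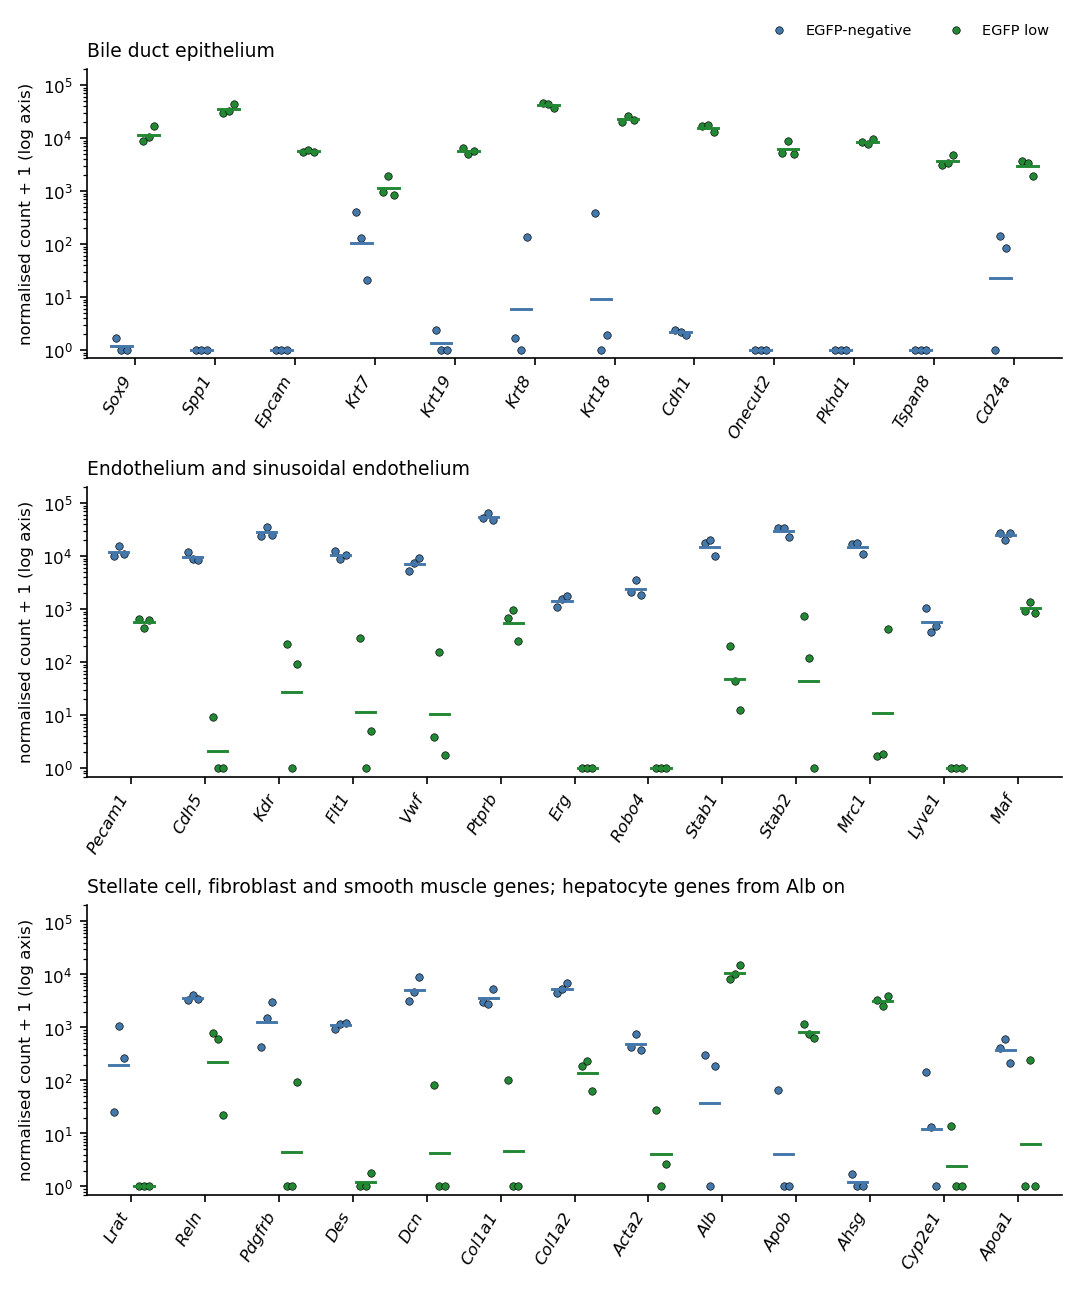
Normalised count plus 1 (log axis) of bile duct genes (top), endothelial genes (middle) and stellate cell, fibroblast, smooth muscle and hepatocyte genes (bottom) in the 3 EGFP-negative (blue) and 3 EGFP low libraries (green). Points are libraries and lines are means of the log values. Low libraries sit above the negative ones for all bile duct genes shown and below them for all endothelial genes shown, while the hepatocyte genes are mixed.

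The 12 largest rises among genes with a mean of at least 100 were Spp1, Sox9, Pkhd1, Eppk1, Cdh1, Krt8, Scara3, Onecut2, Myh14, Epcam, Ptprf and Krt19. Cdh1, the cadherin of epithelial adherens junctions, had 16645, 17484 and 13224 in low cells and 1.38, 1.22 and 0.966 in negative cells, at least 4302-fold higher (adjusted p = 7.02e-10). The 3 negative libraries held 2, 1 and 1 reads of it. Eppk1, which encodes epiplakin, a cross-linker of keratin filaments, was at 4224, 9275 and 12876 against 0 in every negative library (at least 2396-fold). Myh14, a non-muscle myosin heavy chain of epithelia, stood at 8842, 9282 and 9846 against 0.691, 1.22 and 0 (at least 2541-fold). Scara3, a scavenger receptor family member, had 6311, 4849.8 and 10117 in low cells and none in negative cells (at least 1933-fold). Ptprf, the receptor phosphatase LAR, had 6958, 7307 and 6349 against 0, 0 and 0.966 (at least 1873-fold). These 12 calls held with every single library left out, and all but that of Krt8 held in a fit of the low and negative libraries alone (adjusted p = 0.0610 for Krt8).

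Of 18 tested members of a list of epithelial transcription and splicing factors, 13 were higher in EGFP low cells and none was lower, with a median log2 fold change of 9.95 (8.20 with lower bounds). Onecut2 had 5229, 8879.7 and 5088 against 0 throughout (at least 1744-fold, adjusted p = 1.26e-06). It belongs to the family of HNF6, the product of Onecut1, which was itself higher at 1174, 1170.0 and 1058 against 0 (adjusted p = 0.0147, and up to 0.0545 with any 1 low library left out).

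Ehf and Elf3 encode epithelial ETS factors. Ehf stood at 3390.2, 3133 and 3222 in low cells and at 0 in all negative libraries, at least 885-fold higher (adjusted p = 3.22e-06). Klf5, a zinc finger factor of proliferating epithelia, showed 3297, 3673 and 3140.4 against 0 (at least 919-fold, adjusted p = 2.92e-05). The low libraries agreed within a narrow range for both genes. Foxa1, a pioneer factor of endoderm, had 744, 1432 and 1189 against 0 (at least 306-fold, adjusted p = 0.0128). Grhl2, which maintains epithelial junction genes, and Esrp1, a splicing factor that sets epithelial isoforms, were at least 196-fold and 91.1-fold higher, the latter with an adjusted p of 0.0676 without EGFP low library 3. Hnf4a, better known from hepatocytes, was also higher, at 1029, 937 and 1947 against 0 in every negative library (adjusted p = 0.015). That call was lost whenever 1 of the 6 low or negative libraries was left out (adjusted p up to 0.0906), and the span of the gene overlaps the antisense gene Hnf4aos. Without EGFP low library 3, 7 members of the list were called instead of 13.

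Keratins and desmosomes, which tie the filament network of an epithelium from cell to cell, accounted for some of the most abundant transcripts of the low cells. Of 14 tested members, 7 were higher and none was lower, and the list summed to 142318 to 167485 per low library against 2768 to 3449.9 per negative library. The partner keratins of simple epithelia, Krt8 and Krt18, were read at 45634, 44695 and 37197 and at 20204, 26439 and 21588 in low cells. In negative cells they were at 0.691, 0 and 133 and at 390.4, 0 and 0.966, ratios of 952-fold and 174-fold (adjusted p = 2.83e-07 and 1.91e-05). Dsp encodes desmoplakin, which anchors keratin to the desmosome, and it had 21359, 26707 and 24754 against 109, 1.22 and 301, a 177-fold ratio (adjusted p = 1.58e-05). Dsg2, a desmosomal cadherin, followed with 21686, 26174 and 29269 against 0.691, 339 and 103 (174-fold, adjusted p = 2.34e-05). Ppl, the cytolinker periplakin, started from a higher level in negative cells: 21089, 28546 and 24306 against 182, 2037 and 1101 (22.3-fold, adjusted p = 1.58e-05). For all 5 genes every low library exceeded every negative library, as it did for 1352 of all 16128 tested genes. In a fit of the low and negative libraries alone 1 member of the list was called, and none of these 5 (adjusted p from 0.0610 to 0.129).

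Of 17 tested tight junction and polarity genes, 8 were higher in low cells and 1 was lower, with a median log2 fold change of 5.92 (5.51 with lower bounds). The claudins, which form the seal, included Cldn3 at 1319, 2788 and 1696 against 1.38, 0 and 0 (at least 527-fold, adjusted p = 0.000304). Cldn4 and Cldn7 were at least 433-fold and 260.3-fold higher, with calls lost without any 1 of 6 and any 1 of 5 libraries (adjusted p up to 0.0833, without EGFP low library 3, and 0.0792, without EGFP low library 1). Ocln, which encodes occludin, stood at 2402, 1135 and 3431 against 0, 0 and 0.966 (at least 633-fold, adjusted p = 3.1e-05), and Pard6b, a subunit of the apical polarity complex, at 1844, 3026 and 1263 against 0 (at least 557-fold, adjusted p = 0.000136). The scaffold gene Tjp1 (ZO-1), whose product endothelium also uses, went the other way. It was lower, at 5436, 5104 and 6288 against 10829, 9907 and 10889.5, and the difference on the log2 scale was -0.91 ± 0.24 (adjusted p = 0.0352). Its groups did not overlap, but the call was lost in all 3 count models and without EGFP-negative library 1 or 3 or EGFP low library 1 or 2 (adjusted p up to 0.0884). The number of tight junction genes called higher fell to 3 without EGFP low library 1 or 2.

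Duct cells modify bile by moving ions and water. Of 12 tested genes for duct secretion and transport, 3 were higher in EGFP low cells and 1 was lower. Slc5a1, the sodium-glucose cotransporter SGLT1, had 1611, 1312 and 2425 against 0 in each negative library (at least 486-fold, adjusted p = 5.21e-05). Atp1b1, the beta subunit of the sodium pump, had 4722, 3450.4 and 4513 against 0, 56.3 and 0 (225-fold, adjusted p = 6.7e-05). Ano1, a calcium-gated chloride channel, was 22.2-fold higher (adjusted p = 0.0226), a call lost without any 1 of 9 libraries, the 3 EGFP low libraries among them (adjusted p up to 0.124). The chloride channel Cftr fell just outside the threshold at 196, 454 and 551 against 0 (adjusted p = 0.0523), with all low libraries above all negative ones. The secretin receptor Sctr had 8.91, 0 and 239 against 0 (adjusted p = 0.344), and the anion exchanger Slc4a2 was at 912, 1109 and 968 against 22.8, 892 and 548 (adjusted p = 0.548). The exception was the water channel Aqp1, which sinusoidal endothelium makes as well. It was lower in low cells, at 124, 0 and 0.822 against 10004, 10017 and 5823, a 207-fold ratio in favour of negative cells (adjusted p = 0.00529), a call lost without any 1 of 5 libraries (up to 0.0776, without EGFP low library 3).

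Cholangiocytes carry a primary cilium that senses bile flow, and 4 of 16 tested cilium and polycystic disease genes were higher, with none lower. Pkhd1 encodes fibrocystin, a membrane protein of the cilium of duct cells that is mutated in recessive polycystic disease of kidney and liver. It had 8617, 7651 and 9630.0 normalised counts in low cells and 0 in all negative libraries, at least 2353-fold higher (adjusted p = 1.73e-09). The others were Glis3, Bicc1 and Cys1. Glis3, a zinc finger factor linked to cystic disease, had 5508, 1697 and 4319 against 0 (at least 1047-fold, adjusted p = 2.15e-06). Bicc1, an RNA-binding protein mutated in a mouse model of polycystic kidney, had 7425, 7824 and 7775 against 830.5, 1245 and 2324 (5.23-fold, adjusted p = 0.00266), and Cys1, which encodes cystin of the ciliary membrane, had 282, 399 and 258 against 0 (at least 85.4-fold, adjusted p = 0.0237). The 4 calls held with any library left out, and those of Bicc1 and Cys1 were lost in a fit of the low and negative libraries alone (adjusted p = 0.0719 and 0.122). Pkd1 and Pkd2, the genes of dominant polycystic kidney disease, were not called: Pkd1 had 649, 1313 and 87.9 against 781, 2684 and 2574 (adjusted p = 0.327) and Pkd2 2615, 2264 and 2229 against 794, 901 and 128 (adjusted p = 0.0642). The groups overlapped for Pkd1 and were apart for Pkd2.

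Hepatocyte genes split. Of 13 tested members of the hepatocyte list, 4 were higher in EGFP low cells, none was lower, and the list summed to 16148 to 23863 in low and 664 to 1418 in negative libraries. Alb, which encodes serum albumin, was read at 8181, 10201 and 15355 in low cells and 301, 0 and 184 in negative cells, a 69.6-fold ratio (adjusted p = 0.000883, and up to 0.0612 without EGFP low library 1 or 3). Ahsg, the plasma glycoprotein fetuin-A, stood at 3344, 2583 and 3883 against 0.691, 0 and 0 (at least 891-fold, adjusted p = 2.05e-06), and the lipoprotein gene Apob at 1182, 743 and 621 against 64.9, 0 and 0 (39.2-fold, adjusted p = 0.0101, and 0.0522 without EGFP low library 1). The remaining one was Hnf4a, described above. Cyp2e1, Cps1 and Apoa1 had overlapping groups. Cyp2e1, an abundant enzyme of hepatocytes near the central vein, had 12.6, 0 and 0 against 143, 12.2 and 0. The urea cycle gene Cps1 had 219, 0 and 0 against 20.7, 0 and 0. Serpina1a, Cyp3a11 and Tdo2 were at 0 in all 6 libraries, and Apoa1 had 0, 247 and 0 against 406, 616 and 211 (adjusted p = 0.349). Without EGFP low library 1, 1 member of the list was called instead of 4.

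Endothelial genes made up the opposite pole. All 15 tested pan-endothelial markers were called lower in EGFP low cells, against 2.15% of all tested genes, with a median log2 fold change of -10.00 (-8.09 with lower bounds). Their counts summed to 148079 to 192005 per negative library and 1004 to 2427 per low library. Ptprb, the endothelial phosphatase VE-PTP, was the most abundant, at 52001, 64963 and 48700.1 in negative and 688, 971 and 252 in low cells, an 86.7-fold ratio in favour of negative cells (adjusted p = 1.15e-06). Cdh5 encodes VE-cadherin of endothelial junctions and had 12116, 8857 and 8528 against 8.16, 0 and 0 (11 reads in EGFP low library 1, adjusted p = 0.00058). The adhesion molecule gene Pecam1 had 9984, 15302 and 11060.5 against 668, 442 and 616 (21.1-fold, adjusted p = 0.000198). For all 15, every low library lay below every negative library, as it did for 1374 of all 16128 tested genes. Erg, an ETS factor that maintains endothelial identity, was at 1082, 1552 and 1768 against 0 in every low library, and the guidance receptor Robo4 at 2152, 3495 and 1856 against 0. They were at least 576-fold and 981-fold lower. Between 10 (without EGFP-negative library 2) and 14 of the genes were called with 1 library left out, and 7 in a fit of the low and negative libraries alone.

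Sinusoidal markers followed, with 11 of 15 tested members called lower. All 15 had every low library below every negative one, beside 1374 of all 16128 tested genes. The counts of this list summed to 120469 to 163203 per negative library and 2054 to 3555 per low library. The scavenger receptors of this endothelium were among the strongest signals of the negative cells. Stab2 had 33542, 33452 and 23317 against 732, 118 and 0 (106-fold, adjusted p = 0.00447), a call lost without any 1 of 6 libraries, EGFP-negative library 1 giving the highest adjusted p at 0.0981. Its relative Stab1 had 17503, 20196 and 9939 against 203, 44.2 and 11.5 (184-fold, adjusted p = 0.00136) and held in every omission of 1 library. Mrc1, the mannose receptor, had 17394, 17674 and 10969 against 0.742, 0.85 and 424 (108-fold, adjusted p = 0.00303), lost without any 1 of 5 libraries (up to 0.0733, without EGFP low library 1). The hyaluronan receptor gene Lyve1 had 1045, 379 and 474 against 0 (at least 248-fold lower, adjusted p = 0.0468), lost without any 1 of 9 libraries (up to 0.125, without EGFP-negative library 1). The transcription factor Maf was lower but still present, at 27243, 20269 and 27449 against 948, 1394 and 841 (23.6-fold, adjusted p = 9.17e-08). The list had 5 members called without EGFP-negative library 1 or 2, and 7 in a fit of the low and negative libraries alone.

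The 12 largest falls among genes with a mean of at least 100 were Col13a1, Exoc3l2, Hecw2, Mmrn2, Cdh5, Rspo3, Gvin1, Jam2, Gimap6, Ehd3, Plvap and Btnl9. Ehd3, an endosome recycling protein, was the most abundant, with 15226, 14223 and 16293 in negative and 34.1, 0.85 and 0.822 in low cells (1277-fold, adjusted p = 0.000392). Col13a1, a transmembrane collagen, had 7128, 5772 and 5924 against 0 in all low libraries (at least 2462-fold lower, adjusted p = 0.000787). Exoc3l2 had 3903, 6600.3 and 6499.9 against 0 and Hecw2, a ubiquitin ligase, 5844, 5481 and 4743 against 0. Mmrn2, an endothelial matrix protein, had 4996, 3622 and 5667 against 0 (at least 1868-fold). Plvap encodes the protein of the diaphragms that span endothelial pores and had 4315, 2388 and 2636 against 0 (at least 1221-fold). Jam2, a junctional adhesion molecule, had 3195, 5463 and 2196 against 0. Gvin1, an interferon-inducible GTPase with near-identical copies in the genome, had 2203, 11034 and 2839 against 0, and reads of a copy could have been counted under it. These calls held with each library left out.

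Of 19 tested transcription factors of endothelium and mesenchyme, 7 were called lower in EGFP low cells and 1 was called higher. Gata4, which sets the sinusoidal type of endothelium, was at 1917, 1704 and 1908 in negative and 0 in every low library (at least 723-fold lower, adjusted p = 0.00675). Ets1 had 3800.0, 7113 and 4295 against 602, 304 and 520.3 (10.7-fold, adjusted p = 0.0033), and Nr2f2, a nuclear receptor of veins, kept a level of 1619, 1884 and 1922 in low cells against 6277, 6441 and 4860.0 (log2 fold change -1.69 ± 0.40, adjusted p = 0.0188, and 0.0501 without EGFP low library 1). Zeb1 and Zeb2, repressors of Cdh1 in mesenchymal cells, were 46.9-fold and 49.8-fold lower (adjusted p = 0.0161 and 0.00435), the first call being lost without any 1 of 9 libraries (adjusted p up to 0.116, without EGFP low library 3) and the second without EGFP-negative library 1 or 3 (up to 0.0581). The exception was Hhex, a homeobox factor made by endothelium and by developing liver and bile duct. It had 7831, 5144 and 4834 in low cells against 985, 1535 and 974, a 5.1-fold ratio with no overlap (adjusted p = 0.00939, and up to 0.0955 without 1 of 5 libraries, the 3 low libraries among them).

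Of 14 tested stellate cell and fibroblast genes, 7 were called lower in EGFP low cells, 7 were not called and none was higher, with a median log2 fold change of -7.08 (-6.25 with lower bounds). Des, the muscle-type filament protein desmin, had 915, 1180.2 and 1228 against 0, 0 and 0.822 (at least 435-fold lower, adjusted p = 0.0104). Col1a2 had 4467, 5204 and 6864 against 190.0, 229 and 62.5 (34.3-fold, adjusted p = 0.000611). Those calls held with each library left out, while that of Dcn, the small proteoglycan decorin (3163, 4752 and 9069 against 82.4, 0 and 0, adjusted p = 0.00853), was lost without any 1 of 5 libraries (up to 0.081, without EGFP-negative library 3). Reln, the secreted glycoprotein reelin, kept part of its level in 2 low libraries, at 781, 594 and 21.4 against 3244, 4104 and 3426 (adjusted p = 0.0343), and its call was lost with any library left out (adjusted p up to 0.198). Lrat, the enzyme that esterifies retinol in stellate cells, was at 24.9, 1085 and 266 in negative and 0 in low cells and missed the threshold (adjusted p = 0.0857). Of 9 tested smooth muscle genes, Lmod1, an actin-nucleating protein, was lower at 245, 1455 and 1832 against 0 (adjusted p = 0.0217, up to 0.0759 without any 1 of 5 libraries), while Acta2 was at 423, 742 and 376 against 26.7, 0 and 1.64 (adjusted p = 0.108) and Myh11 at 2644, 6518 and 8981 against 505, 0 and 676 (adjusted p = 0.117). Without EGFP-negative library 3 or EGFP low library 2, the stellate list had 2 members called, as in a fit of the low and negative libraries alone.

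In each population most macrophage, lymphocyte and neutrophil markers were at 0 in every library, though for macrophage genes these were not always the same ones. In the negative libraries 8 of 12 macrophage genes and 11 of 14 lymphocyte genes were at 0 throughout, Vsig4, C1qa, Cd3e and Ptprc among them. The macrophage list summed to 0 to 1007 per negative and 814 to 1219.7 per low library, and the lymphocyte list to 186 to 1786 and 11 to 121. Neutrophil genes S100a8, S100a9, Ly6g, Mpo and Elane were at 0 in all 6 libraries. The hemoglobin gene Hba-a2 was abundant in all, at 3818, 3009 and 3842 in low and 5879.6, 3097 and 6608 in negative cells (adjusted p = 0.653). The macrophage list was carried by Csf1r, the receptor of the growth factor CSF1, which was higher in low cells at 670.2, 814 and 1133 against 0 (at least 238-fold, adjusted p = 0.0162, and up to 0.0604 without EGFP low library 2 or 3), while 8 of the other macrophage genes were at 0 in every low library. Of mesothelial genes, Igfbp5 was lower at 1163, 1269 and 629.6 against 2180.5, 6941 and 18361 (adjusted p = 0.0296, up to 0.184 without any 1 of 11 libraries), and Wt1 and Upk1b were at 0 in all 6 libraries.

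**Figure D3:**
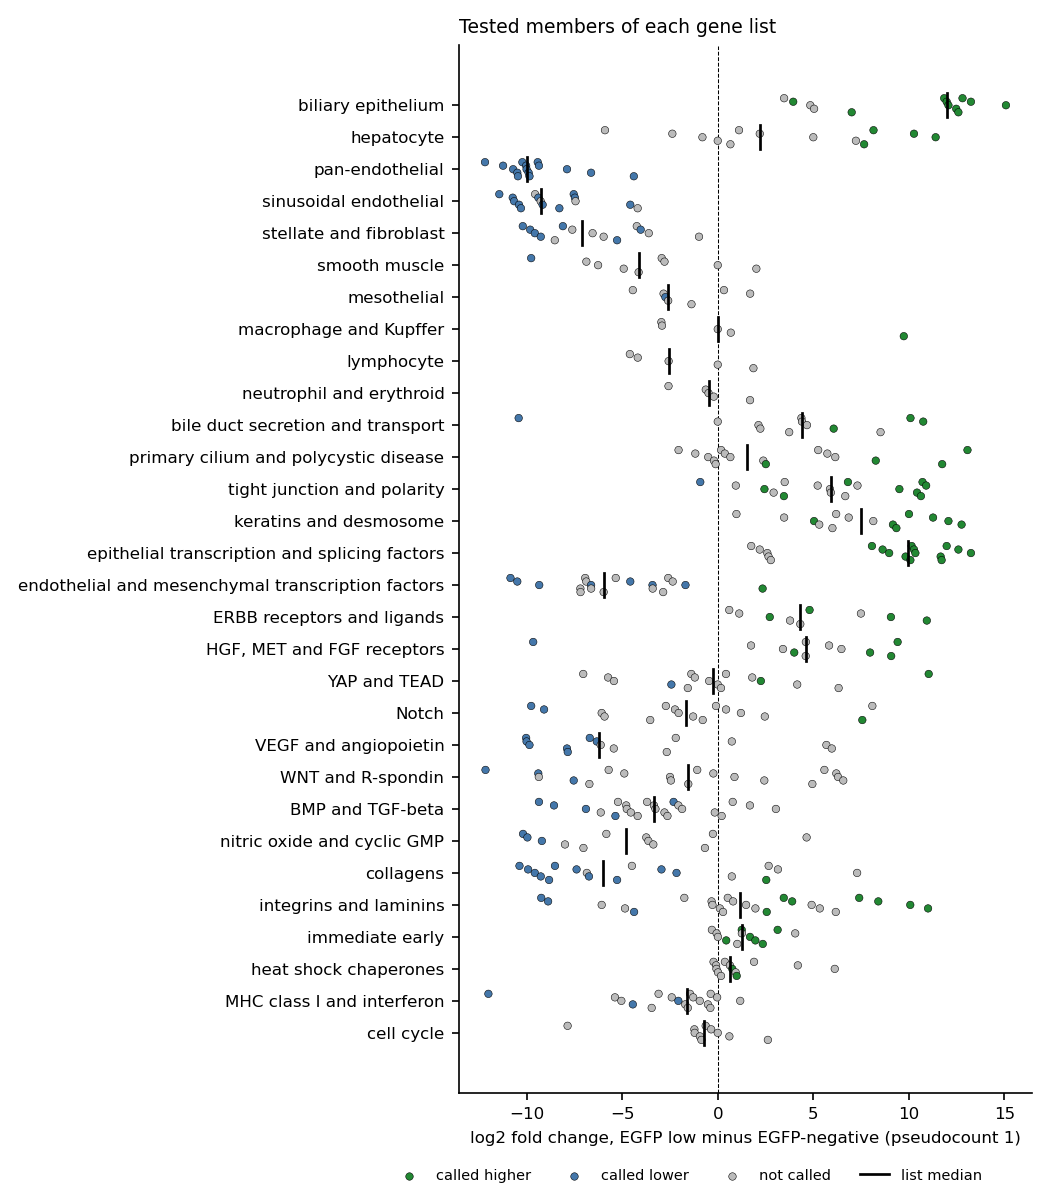
Log2 fold change (EGFP low minus EGFP-negative, pseudocount 1) of the tested members of 30 gene lists. Each point is a gene, green if called higher, blue if called lower and grey if not called; black lines are list medians. The medians of the biliary, junction and epithelial factor lists lie to the right of 0 and those of the endothelial, stellate and collagen lists to the left.

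The medians of further lists are given on the log2 scale beside the 0 of all tested genes, with the value under lower bounds in parentheses. On the side of EGFP low cells, keratins and desmosomes had 7.50 (6.24), duct transport 4.39 (3.27) and cilium genes 1.52 (1.98). Hepatocyte genes had 2.20 (3.12), ERBB genes 4.32 (3.05) and the HGF, MET and FGF receptor genes 4.61 (3.71). Integrins and laminins had 1.14, immediate early genes, under lower bounds, 1.25 and chaperones 0.64 (0.21). On the side of negative cells, sinusoidal markers had -9.27 (-6.77), collagens -6.00 (-4.82), VEGF and angiopoietin genes -6.23 (-5.05) and endothelial and mesenchymal transcription factors -5.97 (-4.83). Smooth muscle genes had -4.14 (-5.42), BMP and TGF-beta genes -3.34 (-2.21), nitric oxide genes -4.79 (-2.18) and WNT genes -1.54 (-1.56). MHC class I and interferon genes had -1.63 (-1.43), mesothelial genes -2.59 (-1.10) and lymphocyte genes -2.57 (-4.88). Cell cycle genes, none of which was called, had -0.74 (-0.70). The 5 tested neutrophil and erythroid genes, also without a call, had -0.48 (-0.55), and the 5 tested macrophage and Kupffer cell genes, of which 1 was called higher, had a median of 0, also under lower bounds.

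Growth factor receptors and their ligands were set side by side family by family. Of 9 tested genes for ERBB receptors and ligands, 4 were higher in low cells and none was lower. Erbb3, a neuregulin receptor with little kinase activity of its own, had 2937, 1518 and 2331 against 67, 0 and 0 (101-fold, adjusted p = 0.00132). Erbb4, the other neuregulin receptor, had 1973, 2081 and 1849 against 0 (at least 536-fold, adjusted p = 0.00435). Erbb2 and Egfr, the receptors with which they pair, were not called: Egfr had 684, 816 and 1299 against 374, 701 and 787 (adjusted p = 0.966) and Erbb2 615, 466 and 1709.5 against 609, 100.3 and 0 (adjusted p = 0.257), with overlapping groups. The ligand Hbegf was higher on the receptor side, at 8033, 13183 and 9398 against 951, 3089 and 1176 (5.87-fold, adjusted p = 0.000231). So was Errfi1, a feedback inhibitor of these receptors (8.28-fold, adjusted p = 0.00377), though its call was lost without any 1 of 8 libraries (up to 0.107, without EGFP-negative library 3), and its negative libraries ran from 41.6 to 2574.

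Hepatocyte growth factor and its receptor were on opposite sides. Hgf had 540.3, 1782 and 546 in negative cells and 0 in each low library (at least 375-fold lower, adjusted p = 0.0182). Met, its receptor, had 2425, 2325 and 1682 in low cells against 0, 0 and 29 (222-fold higher, adjusted p = 0.000749). Both calls held in every omission of 1 library but were lost in a fit of the low and negative libraries alone (adjusted p = 0.0640 for Hgf and 0.0773 for Met), where none of the 4 rises of this list was called. St14, the membrane protease matriptase, and Spint1, an inhibitor of the proteases that activate HGF, were higher with adjusted p values of 0.0101 and 0.0355. These calls were lost without any 1 of 11 and any 1 of 9 libraries (adjusted p up to 0.124, without EGFP-negative library 1, and 0.105, without EGFP low library 1). Fgfr3 was 9.59-fold higher (adjusted p = 0.00462, up to 0.0679 without any 1 low library), and Fgfr1, at 5936, 4464 and 2902 against 1845, 1114 and 29.9, had an adjusted p of 0.0585. Without any 1 low library, 1 of the 4 rises in this list was called.

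Within the Notch pathway, which directs ductal fate in the developing liver, 1 of 16 tested genes was higher and 2 were lower. These were 6.25% and 12.5% of the list, against 2.55% and 2.15% of all tested genes. The list median was -1.67. Notch2, the receptor required for bile duct formation, had 4283, 4427 and 4820.4 in low cells and 25.6, 0 and 505 in negative cells (25.5-fold, adjusted p = 0.00283). The low libraries lay within a narrow band, and the call was lost without EGFP-negative library 1 or any 1 low library (adjusted p up to 0.0697). Dll4, the ligand of endothelial cells, was lower at 75, 0 and 0 against 1906, 1715 and 3751 (98.3-fold, adjusted p = 0.0206, and 0.0534 without EGFP-negative library 3), and so was Lfng, which modifies the receptors with sugars (adjusted p = 0.0394, up to 0.115 without any 1 of 10 libraries). Notch1 had 828, 3848 and 1994 against 2803, 6451 and 5132 and Jag1, the ligand mutated in Alagille syndrome, 1407, 839 and 369 against 184, 931 and 1025. Their groups overlapped (adjusted p = 0.246 and 0.906), as did those of the target gene Hes1 (1132, 3372 and 6288 against 1068, 1471 and 1227, adjusted p = 0.42).

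Of 14 tested VEGF and angiopoietin genes, 7 were called lower in low cells and none higher, and 1 was called in a fit of the low and negative libraries alone. Kdr, the main VEGF receptor, had 24647, 35732 and 25356 in negative cells against 223, 0 and 91.2 (273-fold, adjusted p = 0.00284, and up to 0.0774 without any 1 negative library). Flt1 had 12494, 8751 and 10508 against 284, 0 and 4.11 (110.4-fold, adjusted p = 0.00436) and the co-receptor Nrp2 10849, 6022 and 8234 against 278, 60.3 and 27.1 (68.6-fold, adjusted p = 0.00014). The ligand Vegfa was read on both sides, at 4759, 6106 and 2448 in low and 1409, 4275 and 2546 in negative cells (adjusted p = 0.502). Its groups overlapped. With EGFP-negative library 1, 2 or 3 left out, 3 members of the list were called.

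Of 19 tested WNT and R-spondin genes, 3 were lower in low cells (15.8%, against 2.15% of all tested genes) and none was higher. These were the ligands known from the endothelium of the central vein. Rspo3, which enhances WNT signals, had 3063, 4053 and 7613 in negative cells and 0 in all low libraries (at least 1926-fold lower, adjusted p = 0.00667). Wnt2 had 389.7, 404 and 39.6 against 0 (adjusted p = 0.0277) and Wnt9b 453, 1095 and 608 against 0 (adjusted p = 0.0324, up to 0.0917 without any 1 of 9 libraries). Wnt4 was read in both populations, at 2385, 2997 and 4409 against 1437, 2047 and 1731, with low above negative in all libraries but an adjusted p of 0.327. Lgr4, an R-spondin receptor, had 695, 402 and 101 against 58, 0 and 0 (adjusted p = 0.204), and Lgr5 was at or near 0 in all 6 libraries.

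Among 23 tested BMP and TGF-beta genes, 5 were lower and none was higher, and all of the called genes but Tgfb1 were receptors or co-receptors. Eng, which encodes endoglin, had 9523, 11277 and 8311 against 82.4, 0 and 37 (244-fold, adjusted p = 0.00618), and the co-receptor Tgfbr3 had 6184, 4831 and 4046 against 399, 23.8 and 177 (25.1-fold, adjusted p = 0.00614). Both held in every omission of 1 library but not in a fit of the low and negative libraries alone (adjusted p = 0.0973 and 0.113). Bmpr2 was lower but present, at 1353, 1103 and 3031 against 10613, 8961 and 5816 (4.63-fold, adjusted p = 0.00487, up to 0.0649 without EGFP-negative library 1 or 2 or EGFP low library 1 or 2). Bmp2, a signal of sinusoidal endothelium, was not called in spite of groups that were far apart, at 8476, 8605 and 7370.1 against 316, 829 and 335 (adjusted p = 0.311). In the fit of the low and negative libraries alone its adjusted p was 0.0299, and with edgeR and TMM scaling on 10 libraries 1.72e-05. Without EGFP-negative library 1 or EGFP low library 2, 2 members of the BMP and TGF-beta list were called. In the nitric oxide pathway 3 of 12 tested genes were lower: Pde2a, a cyclic nucleotide phosphodiesterase, with 12665, 9753 and 6595 against 281, 0 and 0.822 (adjusted p = 0.00666), Prkg1, the kinase that cyclic GMP activates, with 1623, 1567 and 1049 against 0, 1.7 and 0 (adjusted p = 0.015), and the endothelial synthase Nos3, with 2955, 70.9 and 963 against 0 (adjusted p = 0.0296, up to 0.0564 without EGFP-negative library 1 or 3 or EGFP low library 2 or 3).

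**Figure D4:**
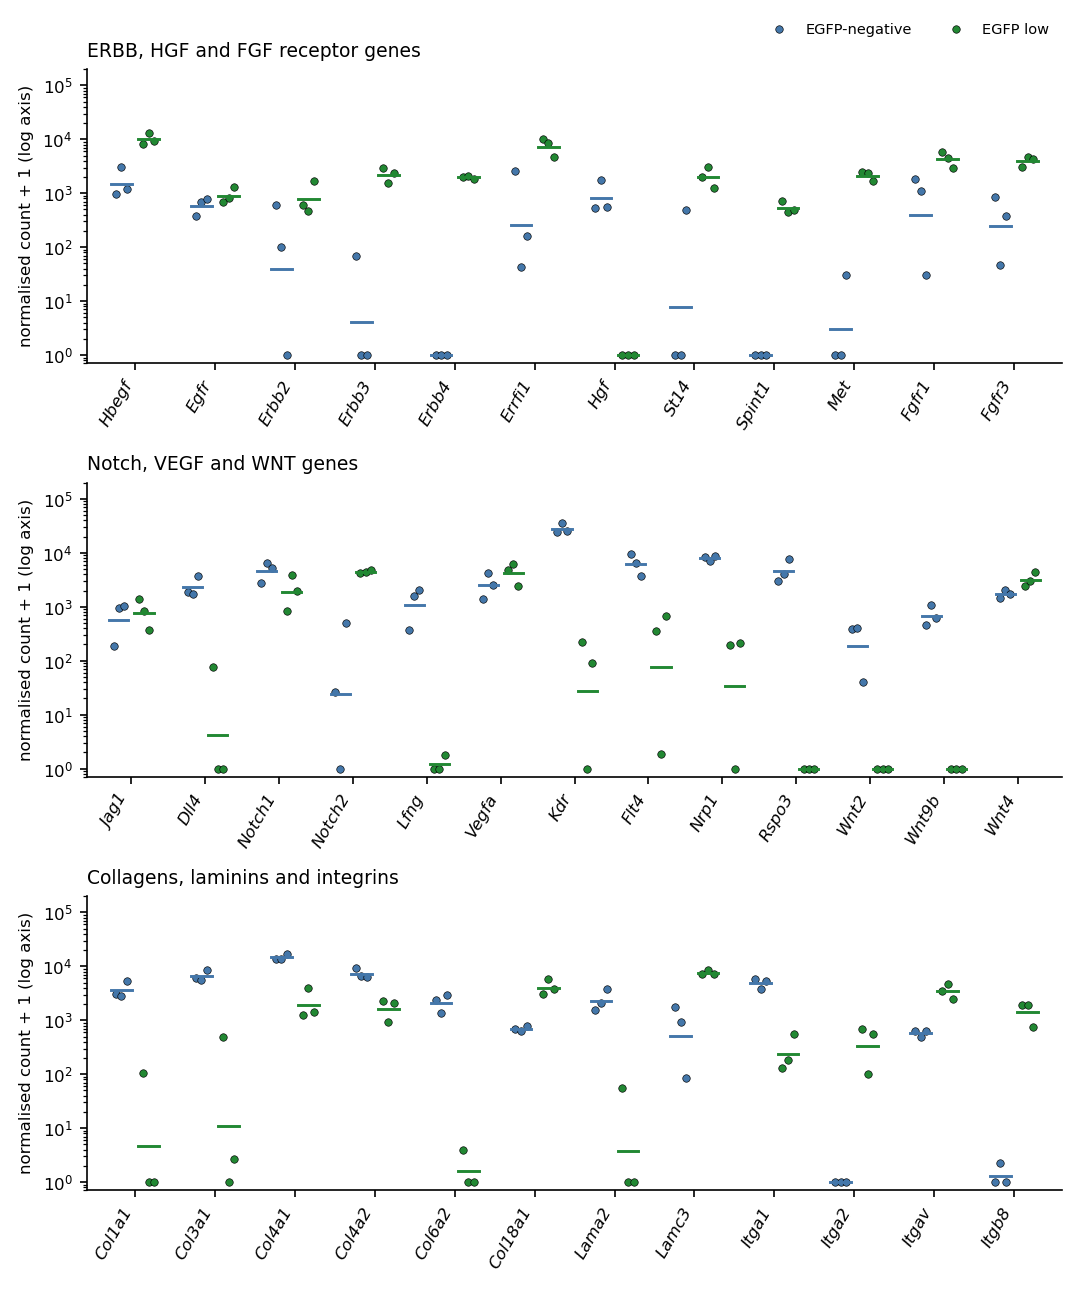
Normalised count plus 1 (log axis) of receptor and ligand genes (top and middle) and of matrix and integrin genes (bottom) in the 3 EGFP-negative (blue) and 3 EGFP low libraries (green). Points are libraries and lines are means of the log values. Met and Hgf lie on opposite sides, and Col18a1 and Lamc3 are higher in low cells where Lama2 and the other collagens shown are lower.

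Of 18 tested collagens, 11 were lower in low cells and 1 was higher, against 2.15% and 2.55% of all tested genes. Fibrillar collagens of stellate cells were lower: Col3a1 had 6214, 5475 and 8708 in negative cells against 485, 0 and 1.64 (41.9-fold, adjusted p = 0.0114), and Col1a1 3067, 2768 and 5410.5 against 103, 0 and 0 (109-fold, adjusted p = 0.012). Each of these calls was lost without any 1 of 5 libraries (adjusted p up to 0.0679, without EGFP low library 3, and 0.0699, without EGFP-negative library 3). Basement membrane collagen IV was lower by less, with Col4a1 at 1275, 3889 and 1398 against 13654, 13533 and 17173 (6.76-fold, adjusted p = 0.000151) and Col4a2 at 2251, 930.4 and 2085 against 9426, 6592 and 6246 (4.23-fold, adjusted p = 0.00436). The annotated spans of these neighbours overlap on opposite strands. Col6a2, a subunit of beaded filaments, had 2339, 1372 and 2895 against 2.97, 0 and 0 (4 reads in EGFP low library 1, adjusted p = 0.00619). The one collagen called higher was Col18a1, the basement membrane collagen that yields endostatin, at 3017, 5815 and 3797 against 685, 641 and 769.8 (6.03-fold, adjusted p = 0.00379), and it held with each library left out but not without a variance trend (adjusted p = 0.187). The fibrillar Col27a1 and the collagen IV chains Col4a5 and Col4a3 also had every low library above every negative one without being called. Of all 16128 tested genes, 1352 had their libraries apart in this direction. Col27a1 had 1223, 1921 and 2718 against 35.2, 686 and 367 (adjusted p = 0.0996), Col4a5 877, 1952 and 1147 against 0, 509 and 0 (adjusted p = 0.127) and Col4a3 394, 652 and 1279 against 140.3, 242 and 36.7 (adjusted p = 0.551). The count of collagens called lower dropped to 5 without EGFP-negative library 2 and to 2 in a fit of the low and negative libraries alone.

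Integrins and laminins, the receptors and the sheet to which an epithelium binds, were called in both directions, 7 of 24 tested genes higher and 3 lower. Itgb8 had 1953, 1904 and 749 against 0, 1.22 and 0 (at least 418-fold, adjusted p = 0.000611). The alpha chain gene Itgav, whose product pairs with that of Itgb8, had 3499, 4767 and 2431 against 627, 493 and 633 (6.1-fold, adjusted p = 0.0145). Itgb4, a hemidesmosome subunit, and Itga3, a laminin receptor chain, were 16.9-fold and 7.62-fold higher (adjusted p = 0.012 and 0.0333), with calls lost without any 1 low library, among others (adjusted p up to 0.0969, without EGFP low library 3, and 0.117, without EGFP low library 1). Lamc3 had 7370.3, 8557 and 7089 against 1731, 922 and 84 (8.41-fold, adjusted p = 0.00276, up to 0.0717 without any 1 low library). On the other side, the collagen receptor chain Itga1 had 5757, 3854 and 5257 against 127, 184 and 549.8 (17.3-fold lower, adjusted p = 0.00732) and Lama2, the laminin chain of mesenchyme, 1527, 2121 and 3738 against 54.2, 0 and 0 (adjusted p = 0.0219, up to 0.0937 without any 1 of 5 libraries). The common beta chain Itgb1 had 2694, 2628 and 2881 against 3436, 4963 and 2336 and was not called (adjusted p = 0.763). Without any 1 low library, 4 members of the list were called higher instead of 7, and the lowest count called lower was 1.

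YAP is a coactivator that works through TEAD factors. Of 16 tested genes on the list of YAP, its relative Wwtr1, the 4 TEAD factors and genes tied to their activity, 2 were higher and 1 was lower. These were 12.5% and 6.25% of the list, against 2.55% and 2.15% of all tested genes. The median log2 fold change of the list was -0.22 beside 0 for all tested genes. Ccn1, a secreted matricellular protein, had 11123, 9242 and 16216 in low cells against 3495, 1589 and 2749.7 (4.67-fold, log2 fold change 2.26 ± 0.27, adjusted p = 2.43e-05). Ankrd1, a nuclear ankyrin protein, had 1901, 1548 and 3162 against 0 (at least 601-fold, adjusted p = 3.19e-06). Both calls held with each library left out, but that of Ccn1 was lost in a fit of the low and negative libraries alone (adjusted p = 0.0811) and without a variance trend (0.246). Ccn2, the relative of Ccn1, ran the other way without being called, at 1679, 0 and 108 against 3522, 2278 and 1849.5 (adjusted p = 0.0674), and EGFP low library 1 stood far above the other low libraries. Amotl2, an angiomotin that restrains YAP and is induced by it, was lower at 1251, 2527 and 856 against 5220.5, 8062 and 9999 (5.03-fold, adjusted p = 0.00667, up to 0.0804 without EGFP-negative library 2 or 3 or EGFP low library 1 or 3). Yap1 and Wwtr1 themselves had overlapping groups, at 1146, 2324 and 209.6 against 1659, 2152 and 2788 and 706, 1075 and 2354 against 1064, 1723 and 684. TEAD factors bind GGAATGT, and these letters were searched on both strands of the 250 bases before each gene start in RefSeq (build GRCm38.p6). The table matched 290 of the 411 genes called higher and 249 of the 346 called lower. The promoter of Ccn1 holds the reverse complement 104 bases before the start. It is printed 5′ to 3′ on the strand of the gene with 20 bases on each side and the matched letters in capitals, because Ccn1 was the more abundant of the called targets.
Ccn1, chr3:145650063-145650109, minus strand: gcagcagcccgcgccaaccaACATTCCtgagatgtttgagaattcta
The letters stood in 16 of 396 promoters of genes called higher (4.04%), 17 of 345 of genes called lower (4.93%) and 1069 of all 32851 promoters of the table (3.25%). Amotl2, which was called lower, holds the same letters as Ccn1 66 bases before its start, and the promoters of Ajuba, Axl, Tead3 and Yap1 from the same list, none of them called, hold them on 1 of the strands. A match is a description of the sequence and not a site shown to be bound.

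Immediate early genes, which cells induce within minutes of a stimulus or of dissociation, were abundant on both sides and were higher in EGFP low cells for 6 of 12 tested members. Their counts summed to 223824 to 254849 per low and 95489.5 to 109136 per negative library. Atf3 had 21046, 19279 and 22120.2 against 2688, 2404 and 2049 (8.74-fold, log2 fold change 3.13 ± 0.20, adjusted p = 6.99e-09). Fosb had 49958, 54367 and 60788 against 15229.7, 11057 and 16372 (3.87-fold, adjusted p = 7.73e-09), Fos was 3.14-fold higher (adjusted p = 3.19e-06) and Jun 2.37-fold (adjusted p = 3.65e-07). The groups of these 4 AP-1 genes did not overlap, and the calls held with each library left out. In a fit of the low and negative libraries alone Fos and Jun lost the call (adjusted p = 0.0665 and 0.0535) and 2 members of the list were called, and without a variance trend none of the 4 was called (adjusted p from 0.0809 to 0.561). Egr1 was 1.37-fold higher (log2 fold change 0.44 ± 0.11, adjusted p = 0.0217), a call lost with any single library left out (adjusted p up to 0.258). Under quantile normalisation the log2 fold change of Egr1 was 0.0712. Junb and Dusp1 had overlapping groups, at 9711, 5815 and 4216 against 5514, 7390.3 and 5736 and 5454, 4545 and 3873 against 10001, 4401 and 4126.

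Of 13 tested heat shock chaperones, the HSP90 genes Hsp90aa1 and Hsp90ab1 were called higher (15.4%, against 2.55% of all tested genes) and none was lower. Hsp90aa1 had 81099, 103977 and 90758 against 57030.3, 35952 and 47427 (log2 fold change 0.99 ± 0.20, adjusted p = 0.00499). Under quantile normalisation the value was -0.0218 (adjusted p = 1), that is, without a change in either direction. With equal totals it was 0.91, with edgeR and TMM scaling 1.06 and with DESeq2 0.99, so the size of the rise depended on the scaling. Hsp90ab1 had a log2 fold change of 0.76 ± 0.13 (adjusted p = 0.0012) and 0.27 under quantile normalisation, where it was not called. The call of Hsp90aa1 was lost without any 1 of 10 of the 12 libraries (adjusted p up to 0.1697, without EGFP-negative library 2), all low and negative libraries among them, and in the fit of the low and negative libraries alone (adjusted p = 0.159). That of Hsp90ab1 was lost without EGFP-negative library 2 or 3 or EGFP low library 1 or 3 (adjusted p up to 0.0734). The stress-inducible Hspa1a and Hspa1b were abundant with overlapping groups, at 21571, 18678 and 22858 against 31152, 12826 and 27558 for Hspa1a (adjusted p = 0.958).

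**Figure D5:**
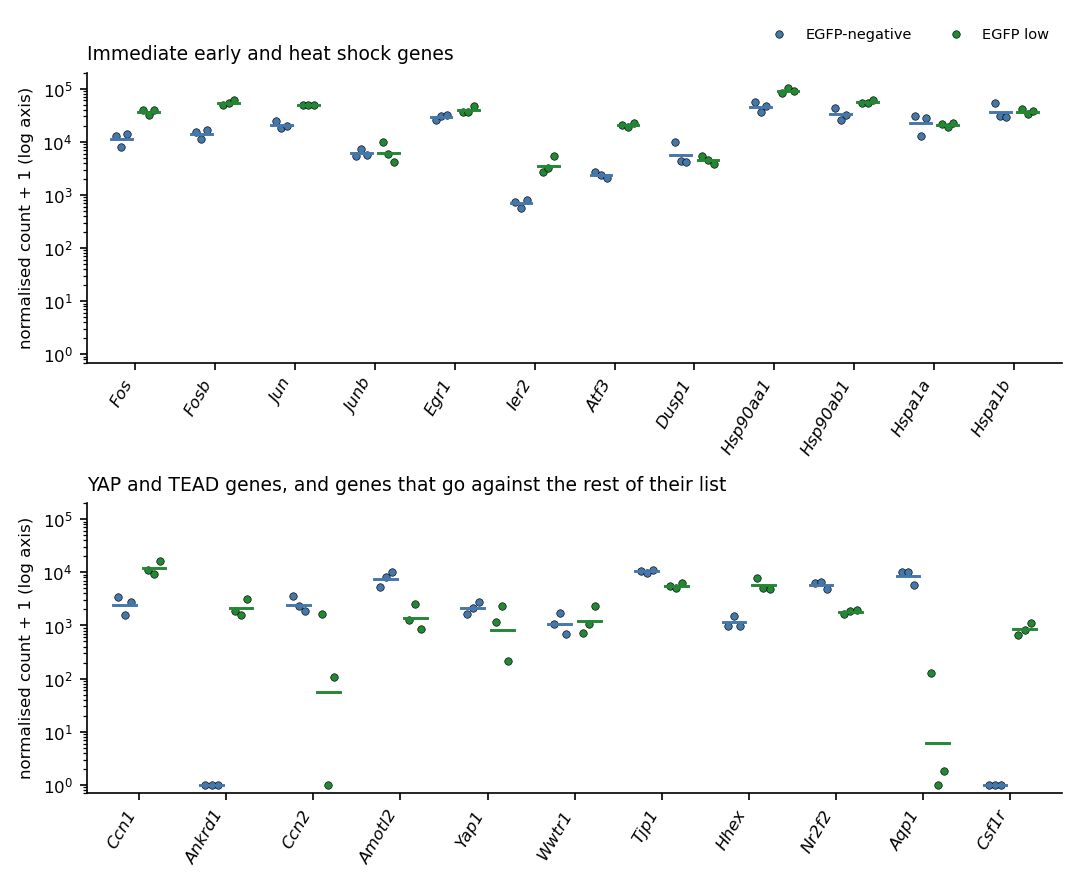
Normalised count plus 1 (log axis) of immediate early and heat shock genes (top) and of YAP and TEAD genes with genes that went against the rest of their list (bottom) in the 3 EGFP-negative (blue) and 3 EGFP low libraries (green). Points are libraries and lines are means of the log values. Atf3, Fosb, Ccn1 and Ankrd1 are higher in low cells without overlap, while Hspa1a, Yap1 and Wwtr1 overlap and Tjp1, Amotl2 and Aqp1 are lower.

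Of 18 tested MHC class I and interferon genes, 3 were lower in low cells (16.7%, against 2.15% of all tested genes) and none was higher. Besides Gvin1, Iigp1, a GTPase that attacks the vacuoles of intracellular parasites, had 533, 432 and 1173 against 14549, 12834 and 14979.7 (19.8-fold, adjusted p = 1.48e-05), and the transcription factor Irf1 had 1156, 1871 and 3131 against 6468, 8062 and 9454 (3.89-fold, adjusted p = 0.00521, up to 0.0743 without EGFP-negative library 2 or 3 or EGFP low library 1 or 2). The class I heavy chain gene H2-K1 had 4819.5, 2106 and 4100.4 against 6697, 3720.2 and 4869 with overlapping groups (adjusted p = 0.544), and B2m, the light chain, 1988, 462 and 664 against 2565, 2234 and 3682 (adjusted p = 0.156). None of 10 tested cell cycle genes was called at an adjusted p under 0.05 by limma, 1 had an unadjusted p under 0.05, and DESeq2 called 1 lower while neither edgeR fit called any. Mki67, a proliferation marker, had 0 in each low library and 585, 42.8 and 485 in the negative libraries (adjusted p = 0.146).

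The other populations of the sort place these levels. In the sub population, the dimmest with EGFP, Spp1 stood at 13719, 8527 and 7705, Cdh1 at 7884, 2118 and 3635 and Ptprb at 13539, 16196 and 9314, each between the negative and the low libraries. Several stellate genes were as high in sub as in negative cells, Reln at 4288, 8510.1 and 5201 and Des at 1409.8, 1962 and 2537. In EGFP high cells, Krt19 stood at 1415, 449 and 485 and Itga2 at 0, 0 and 0, below the low cells (6631, 4936 and 5819.8 and 699.9, 98.6 and 554), while Sox9 stood at 11794, 13969 and 13497. These values are descriptions, and no difference that involves the sub or high population was tested here.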

How the data were processed

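Total RNA libraries (SMARTer Stranded Total RNA Pico v2) of 4 sorted populations with 3 libraries each were deposited as 1 table. Its values are a signal that the authors deposited as normalised counts per gene: each value above 0 was a whole multiple of 1 step per library within 0.01 reads. The submitters' processing notes name Salmon, DESeq2 1.26.0 and mm10, and the steps are not given in the sources used here. Strand use in counting is not given either.

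Values were log2-transformed after adding 1 and fitted with limma 3.58.1 (R 4.3.3) over all 12 libraries with 4 group terms and a variance trend; genes needed a mean of at least 10. Benjamini-Hochberg adjustment ran over all 16128 genes. Reads recovered from the steps of 10 libraries were refitted with edgeR 4.0.16 and DESeq2 1.42.0; the other 2 had a step too near 1 read to be told from unscaled counts. The fits were tested on simulated data, and the outcome is not reported here. Lower bounds rest on 3 reads per library and cover counting error only.

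Named were chosen genes, the 12 largest rises and falls among called genes whose mean reached 100 and whose sign was shared by all 3 same-numbered differences, up to 6 called members per list and direction, the first members of each list, and partners. Other genes were chosen after their values were seen. The members and lists were chosen with earlier results of these data known. Some results of the named genes and of the letters searched in promoters are not reported here. Alternatives are listed in the closing section.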

Additional observations from a re-analysis of the deposited data

How the results depend on the processing

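Of 757 genes called in the 12-library fit, 411 were higher and 346 lower in EGFP low cells. Fitting only the 6 low and negative libraries called 203 genes (99 higher, 104 lower), with 193 among the 757. In that fit the members called lower numbered 7 for the pan-endothelial list (15 in the 12-library fit), 7 for the sinusoidal endothelial list (11), 2 for stellate cells and fibroblasts (7), 2 for collagens (11) and 1 for VEGF and angiopoietin (7). Those called higher numbered 1 for keratins and desmosomes (7), 4 for tight junctions (8), 3 for integrins and laminins (7), 2 for immediate early genes (6) and 0 for HGF, MET and FGF receptors (4). DESeq2 on 10 libraries called 1583 (808 higher, 775 lower), with 593 among the 757. Coefficients of DESeq2 that had not converged or exceeded 20 on the log2 scale (2032 genes) were left without a value, a choice made after seeing the data because they changed between runs, and 1865 genes (980 higher, 885 lower) were called with them. With 1 library left out, the total ran from 465 to 737, the genes called higher from 234 to 405 and those called lower from 220 to 342, and between 399 and 625 of the 757 were called again. The lowest total and the lowest count called lower came without EGFP low library 3, and the lowest count called higher without EGFP low library 1, where 43.9% of calls were higher beside 54.3% with all libraries. With the replicate number as a block, 720 genes were called (395 higher, 325 lower), 683 of them shared. Same-numbered libraries also share a token in the labels whose meaning is not given, so they were not treated as pairs, and the deviations of same-numbered low and negative libraries correlated at 0.0218, 0.0189 and 0.00336.

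The remaining settings gave 583 to 872 genes. They were pseudocounts of 0.5 and 5, a filter at a mean of 100, none at all, equal totals, quantile normalisation, no variance trend, array weights, edgeR with either scaling, a log2 fold change of at least 1 and, added after seeing the data, limma on 10 libraries. Hsp90aa1 went to -0.0218 under quantile normalisation and was not called there. Of 158 named genes called, 54 stayed called in every one of the 27 alternatives that gave a value. Across named genes and settings, 10026 pairs stayed on the same side of the threshold, 683 lost and 166 gained the call. Of the 6455 pairs without a call in either fit, 151 changed sign. The causes were not tested. A read was worth 0.691 to 1.22 normalised counts in these libraries, so levels below 3 reads were not resolved.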

Other observations

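The gene groups described here were put together after the values were seen, so their counts describe these libraries. Of all tested genes, 2.55% were called higher and 2.15% lower. Of 23 tested genes of cholesterol synthesis, 5 were called higher in EGFP low cells (21.7%), none was called lower and 18 were not called. Sqle, which encodes squalene epoxidase, had 1066, 508 and 340.3 normalised counts in low cells and 2.07, 0 and 0 in negative cells (adjusted p = 0.0039). Idi1, an isomerase earlier in the pathway, had 862, 471 and 2413 against 64.9, 0 and 0 (adjusted p = 0.00693), and Srebf2, the factor that drives the pathway, 2503, 2417 and 1158 against 169, 0 and 224 (adjusted p = 0.0281). Each of these 3 genes was without overlap.

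Interferon-induced genes lay on the other side, with 12 of 25 tested members called lower (48.0%) and none higher. Rnf213, a large ubiquitin ligase, had 11571, 24205 and 14800.1 in negative and 4953, 4636 and 5873 in low cells (3.27-fold, adjusted p = 0.00133), and Parp14 had 8189, 9786 and 6305 against 1456, 334 and 967 (8.81-fold, adjusted p = 0.000794). Irf8, a transcription factor of the interferon response, had 1170.4, 1298 and 652 against 0 in every low library (adjusted p = 0.0152). Of 20 tested complement and coagulation genes, 9 were lower (45.0%) and 2 were higher. Vwf, among the 9, was also counted in the pan-endothelial list. F8, coagulation factor VIII, had 14369, 13944 and 9517 in negative and 505, 0 and 0 in low cells (74.9-fold, adjusted p = 0.00122), whereas Proc, the zymogen protein C, had 760.0, 1189 and 909 in low and 11.7, 0 and 0 in negative cells (adjusted p = 0.0318). Of 16 tested GIMAP and endothelial junction genes, 10 were lower (62.5%), among them Heg1, a cardiovascular membrane protein, with 14892, 11663 and 9023 against 304, 185 and 336 (43.1-fold, adjusted p = 4.58e-06). Gimap6, Jam2, Plvap and Mmrn2 of these 10 were already named among the largest falls, and Esam was already counted in the pan-endothelial list. The count is therefore not separate from those results.

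Some of the most abundant differences were in genes outside every list. Clu, the secreted chaperone clusterin, had 28422, 31526 and 39143 in low cells and 70.5, 1.22 and 19.3 in negative cells (1089-fold, adjusted p = 9.77e-09). The unnamed gene models Gm43305, a processed transcript on chromosome 14, and Gm48275, a long noncoding RNA on chromosome 10, stood at 257001, 300809 and 231677 and at 123542, 148733 and 122178 in low cells against 3832, 4973 and 3567 and 1169, 2713 and 4597 in negative cells (63.8-fold and 46.5-fold). On the negative side, the adhesion receptor gene Adgrf5 had 36082, 32835 and 18233 against 612, 1309 and 645 (34-fold, adjusted p = 0.0117), and Lifr, a cytokine receptor gene, was 12.5-fold lower in low cells (adjusted p = 8.92e-06). Of 14 tested mitochondrially encoded genes, 6 were higher in low cells (42.9%), with mt-Nd5 at 19234, 16814 and 19484 against 8762, 3767 and 6281 (2.95-fold, adjusted p = 0.000156).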
